A study of Mus musculus with 4 samples.

Results

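Sclerotome and limb mesenchyme transcription factors were followed in rib cartilage cells of Trim28 knockout and wild-type mouse embryos. Trim28 encodes a chromatin corepressor recruited by KRAB zinc finger proteins. The 10 genes were Prrx1, Prrx2, Twist1, Twist2, Msx1, Msx2, Shox2, Pax1, Pax9 and Nkx3-2. They were chosen by name, with earlier results of these data known. All 10 were found among the 55228 genes of the count table. Total RNA of C57BL/6 embryos at stage E17.5, late in gestation, was sequenced in 4 libraries, of which 2 were wild type (WT) and 2 Trim28 knockout (Trim28 KO). All 4 libraries shared strain, tissue and stage, and the labels name no other allele or agent. They do not say how the knockout was made, in which cells it acts, or whether replicates are separate embryos. The p-values thus reflect the spread between these 4 samples only, and that spread may be technical.

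These genes encode DNA-binding regulators of the mesenchyme from which the skeleton forms. In the somite, Hedgehog signals from the notochord and floor plate induce the paired-box factors Pax1 and Pax9 in the sclerotome, the source of vertebrae and proximal ribs, and these activate the homeobox gene Nkx3-2, which favours chondrogenesis and represses Runx2. In limb bud, head and body wall mesenchyme, the bHLH factors Twist1 and Twist2 pair with E proteins and restrain differentiation, the paired-related homeobox factors Prrx1 and Prrx2 mark undifferentiated skeletal mesenchyme, and the BMP-responsive repressors Msx1 and Msx2 and the proximal limb factor Shox2 act in patterning and growth.

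The deposited counts summed to between 18616896 and 20082123 per library. Trim28 itself stood at 225 and 186 CPM in WT and at 51.1 and 54.5 CPM in Trim28 KO (reads relative to library size, after scaling with TMM factors), a 3.89-fold fall that matched the labels. The chondrocyte markers Col2a1, Acan, Sox9, Matn1, Col9a1, Col11a1, Hapln1 and Matn3 were detected in every library, and edgeR called 0 of these 8 between genotypes, with 1 at an unadjusted p under 0.05, Acan, which DESeq2 called higher. The replicates of each genotype were not copies of 1 library, since their counts differed beyond sampling noise (chi-square per degree of freedom of 33.9 in WT and 27.1 in Trim28 KO).

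Of the 10 factors, Nkx3-2 and Twist1 fell in Trim28 KO, none rose, 7 did not pass the test, and Shox2 had too few reads to be tested. Calls were made by edgeR's quasi-likelihood test at an adjusted p under 0.05, adjusted over all 16639 genes tested. With the replicate number in the labels as a block, neither was called (edgeR adjusted p = 0.067 for Nkx3-2 and 0.0676 for Twist1). At an unadjusted p under 0.05 the test without the block gave 2 factors above 0 (Prrx1 and Msx2) and 4 below (Nkx3-2, Twist1, Twist2 and Pax9). DESeq2 called 1 higher, Prrx1, and limma-voom and edgeR's exact test 0. Across all genes tested, 8.77% were called lower and 8.64% higher. The 9 tested factors had a median log2 fold change of -0.35, with 4 values above 0 and 5 below, beside a median of -0.02 over all genes tested. Both Trim28 KO libraries lay below both WT libraries for 5 of the 9 (29.7% of all genes tested) and above for 2 (28.3% of all). A lack of overlap in either direction occurred in 58.0% of all genes tested, so it sets no gene apart. In bulk RNA, fewer cells that express a gene and less RNA per cell cannot be told apart. The filter on low counts kept 9 of the 10, and Twist2, Msx2, Shox2 and Pax9, 4 in all, had fewer than 30 reads in every library.

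**Figure D1:**
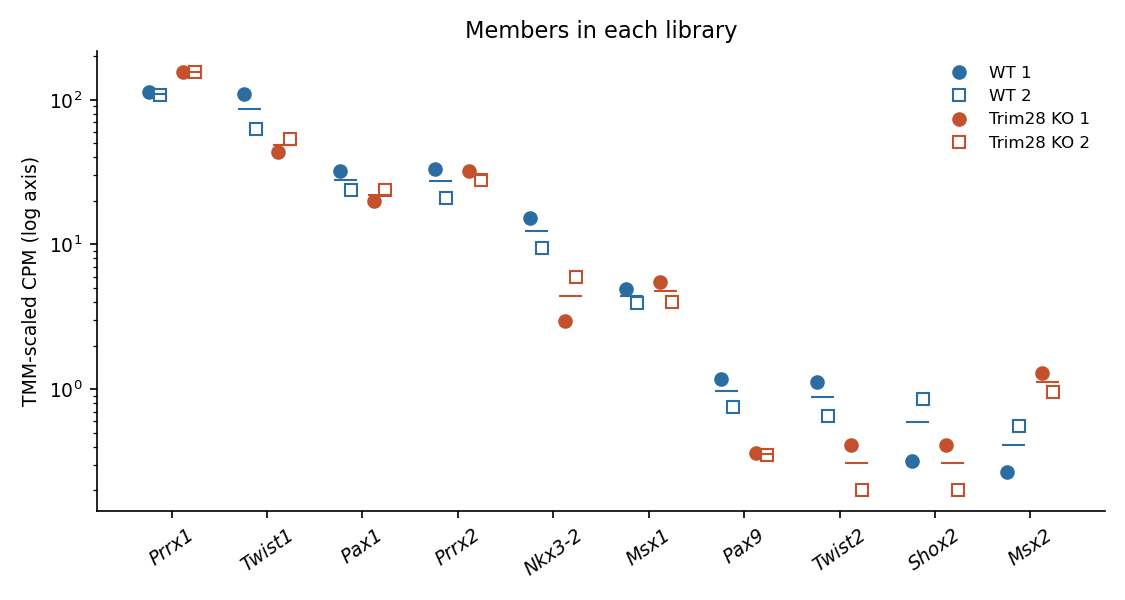
TMM-scaled CPM (log axis) of the 10 factors in each library, ordered by their WT mean. Filled symbols are replicate 1, open symbols replicate 2, blue WT and orange Trim28 KO, and short lines are genotype means of 2 libraries. Nkx3-2 lies at 15.3 and 9.50 CPM in WT against 2.94 and 5.92 in Trim28 KO.

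Among the sclerotome factors, Nkx3-2, also known as Bapx1, was the one that passed the test. The gene has 2 exons and lies on chromosome 5 from 41761483 to 41764501, minus strand, of GRCm38, the assembly also called mm10. It had 288 and 188 reads in WT and 57 and 118 in Trim28 KO, or 15.3 and 9.50 CPM against 2.94 and 5.92 CPM. Both Trim28 KO libraries were below both WT libraries, although the libraries of each genotype also differed among themselves. The fitted fall was 2.79-fold, with n = 2 per genotype (log2 fold change -1.48 ± 0.34 SE, 95% interval -2.22 to -0.74, edgeR quasi-likelihood adjusted p = 0.0103). Its size depended on single libraries. The log2 fold change was -1.08 without WT 1 and -1.76 without WT 2. It was -2.07 without Trim28 KO 2, and -1.06 without Trim28 KO 1, where the call was lost (edgeR adjusted p = 0.0672).

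Pax1 and Pax9, the paired-box factors upstream of Nkx3-2 in the somite, were not called. Pax1, on chromosome 2 from 147361925 to 147393295, plus strand, had 602 and 472 reads in WT and 390 and 473 in Trim28 KO, or 32.0, 23.8, 20.1 and 23.7 CPM in the same order. WT 2 and Trim28 KO 2 nearly coincided, and the log2 fold change was -0.35 ± 0.20 (95% interval -0.76 to 0.07, edgeR adjusted p = 0.256). Pax9, on chromosome 12 from 56691767 to 56712822, plus strand, was rare, with 22 and 15 reads in WT and 7 in each Trim28 KO library. Its groups did not overlap, and the value of -1.42 ± 0.55 missed the threshold (95% interval -2.55 to -0.28, edgeR adjusted p = 0.0798). Pax1, Pax9 and Nkx3-2 all had fitted values below 0, and Nkx3-2 alone was called.

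The locus of Pax1 also holds a noncoding antisense gene, AI646519, at its 5′ end, examined after its values were seen. AI646519 had 39 and 35 reads in WT and 3 and 10 in Trim28 KO, a log2 fold change of -2.52 ± 0.53 (edgeR adjusted p = 0.00146). The value was -3.58 without Trim28 KO 2, and -1.91 without Trim28 KO 1, where the call was lost (edgeR adjusted p = 0.0694). Its exons share 183 bases, 4.1% of the exon length of Pax1. Reads there were assigned to neither gene, and reads elsewhere were counted without regard to strand. In Pax9, 3.7% of the exon length is shared with Slc25a21, a carrier gene on the opposite strand with at most 6 reads in a library.

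Twist1, the most abundant of the 10 per exon length, was the other factor that fell. The gene lies on chromosome 12 from 33957671 to 33959829, plus strand, with 2 exons. Its counts were 2081 and 1242 in WT and 851 and 1064 in Trim28 KO, or 110.5 and 62.7 CPM against 43.8 and 53.4 CPM. WT 1 stood well above the other 3 libraries, and the gap between WT 2 and Trim28 KO 2 was smaller than that between both WT libraries. The log2 fold change was -0.83 ± 0.24 (1.78-fold lower, 95% interval -1.35 to -0.32, edgeR adjusted p = 0.0271). Without WT 1 it was -0.35 (edgeR adjusted p = 0.307), and the call was also lost without Trim28 KO 1 (-0.69, adjusted p = 0.285) and without Trim28 KO 2 (-0.98, adjusted p = 0.11). Without WT 2 it was -1.16 (edgeR adjusted p = 3.76e-06).

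Twist2, the close relative of Twist1 found in dermis and other mesenchyme, lies on chromosome 1 from 91801461 to 91848028, plus strand. It had 21 and 13 reads in WT and 8 and 4 in Trim28 KO. The groups did not overlap, but the log2 fold change of -1.51 ± 0.59 was not called (95% interval -2.73 to -0.29, edgeR adjusted p = 0.0812). In GENCODE M21 the exons of the antisense gene Gm29100 cover 46.5% of the exon length of Twist2. Reads in the shared part were counted for neither gene, so the Twist2 counts come from the rest of the transcript and its level per length is understated.

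Prrx1, the factor with the most reads in every library, had a value above 0 and was not called. It lies on chromosome 1 from 163245119 to 163313710, minus strand. Its counts were 2116 and 2129 in WT and 3024 and 3119 in Trim28 KO, or 112.4 and 107.5 CPM against 155.7 and 156.5 CPM. Replicates lay close together and the genotypes were well apart. The log2 fold change was 0.51 ± 0.19 (1.42-fold, 95% interval 0.11 to 0.91, edgeR adjusted p = 0.0746). DESeq2 called it (0.52, adjusted p = 0.0385), as did edgeR with library size alone as the scaling (0.57, adjusted p = 0.0428) and with trends on GC content removed (0.57, adjusted p = 0.0273). Prrx2, its relative on chromosome 2 from 30834972 to 30881251, plus strand, stood at 33.5 and 21.1 CPM in WT and 32.3 and 27.8 CPM in Trim28 KO. Those ranges overlapped (log2 fold change of 0.14 ± 0.21, 95% interval -0.30 to 0.59, edgeR adjusted p = 0.709).

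The sequence before the start of Twist1 and Prrx1 is shown because these were the most abundant factors by read count, with values of opposite sign. Both come from RefSeq on GRCm38.p6, run 5′ to 3′ on the gene's strand and end at the base before the first base that GENCODE M21 annotates for the gene. They lie at chr12:33957421-33957670 (plus strand) and chr1:163313711-163313900 (minus strand). Capitals mark matches, on either strand, to any of 5 motifs. These are CANNTG, the E-box letters that Twist proteins bind, and TAATTA, a core bound by many homeodomains. The others are TATAAA for the TATA box, GGGCGG for the GC box and CCAAT for the CCAAT box, and no matches overlap in the stretches shown.
Twist1: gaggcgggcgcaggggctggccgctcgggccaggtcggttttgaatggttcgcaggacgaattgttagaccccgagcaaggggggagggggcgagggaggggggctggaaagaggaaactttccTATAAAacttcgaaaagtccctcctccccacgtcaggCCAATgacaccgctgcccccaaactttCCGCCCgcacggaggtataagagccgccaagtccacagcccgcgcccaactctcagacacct
Prrx1: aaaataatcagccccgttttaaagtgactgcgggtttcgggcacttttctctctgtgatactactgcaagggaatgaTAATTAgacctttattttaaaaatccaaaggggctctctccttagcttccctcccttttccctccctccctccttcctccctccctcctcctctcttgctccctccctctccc
The Twist1 stretch of 250 bases held 1 match each to the TATA box, the CCAAT box and the GC box, and 0 to the E-box. The Prrx1 stretch of 190 bases held 1 TAATTA match and 0 to the other motifs.

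All 10 factors had a RefSeq promoter, and 250 bases before each RefSeq start were searched. GGGCGG occurred in 8 of the 10 and in 32.7% of 32817 promoter windows of the same length. CANNTG occurred in 4 of the 10 (Msx1, Msx2, Pax9 and Nkx3-2) against 66.2% of all windows, and TAATTA in 2 of the 10 (Prrx1 and Msx2) against 4.8%. A match is a description of letters and shows no binding. The window of Prrx1 held 4 CpG dinucleotides and that of Twist1 18, where the median of all windows was 6. All factors other than Prrx1 were above this median, from 7 in Pax9 to 23 in Twist2. Whether the GGGCGG count goes beyond this base composition was not tested. For Prrx2, Msx2, Pax1, Pax9 and Nkx3-2 the window lies inside the gene as GENCODE M21 annotates it. In these, the motif and CpG counts do not describe sequence before the first annotated base. The Nkx3-2 window held 21 CpG and is not printed.

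Msx1 and Msx2, homeobox repressors induced by BMP signals, were low in all libraries. Msx1, on chromosome 5 from 37820485 to 37824583, minus strand, had 92 and 78 reads in WT and 107 and 80 in Trim28 KO. These ranges overlapped (log2 fold change of 0.11 ± 0.29, 95% interval -0.48 to 0.70, edgeR adjusted p = 0.84). Msx2, on chromosome 13 from 53466884 to 53473074, minus strand, had 5 and 11 reads in WT and 25 and 19 in Trim28 KO. It had the highest fitted value of the 9 tested, 1.42 ± 0.54 on the log2 scale, and was not called (95% interval 0.32 to 2.53, edgeR adjusted p = 0.0702). The value was 2.08 without WT 2 and 1.03 without WT 1, and was not called in either.

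Shox2, which shapes the proximal limb, lies on chromosome 3 from 66971727 to 66981771, minus strand. It had 6 and 17 reads in WT and 8 and 4 in Trim28 KO, below the filter, and the groups overlapped. With no filter on low counts its log2 fold change was -0.91 (edgeR adjusted p = 0.531). Rsrc1, a gene of the opposite strand with 430 to 485 reads per library, shares 4.6% of the exon length of Shox2, and reads there were counted for neither.

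**Figure D2:**
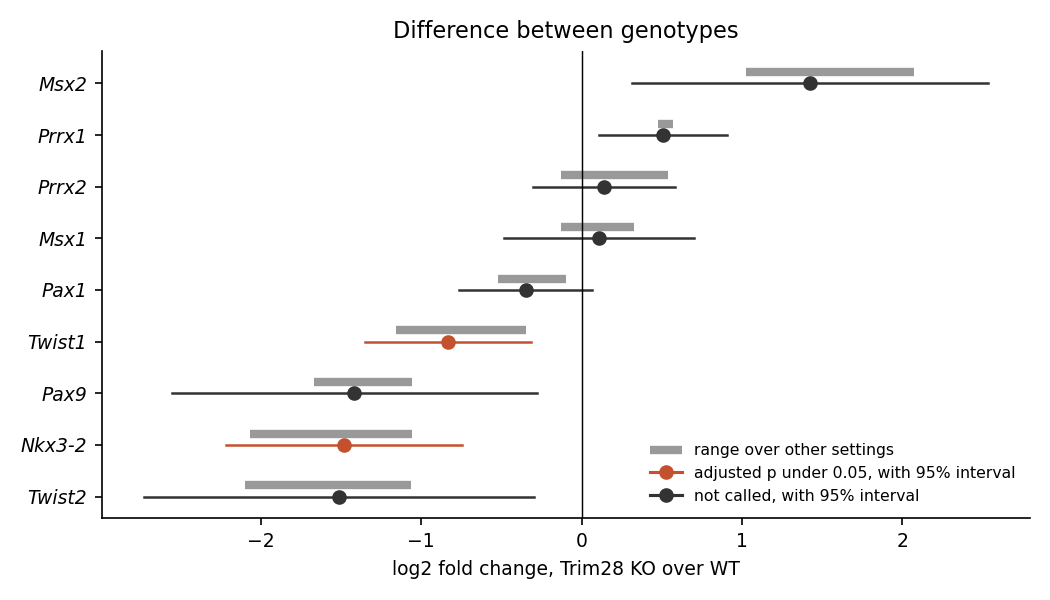
Log2 fold change (Trim28 KO over WT) of the 9 tested factors with 95% intervals, orange where the adjusted p was under 0.05. Grey bars span the value over up to 15 other settings, which include leaving out each library. Twist1 spans -1.16 to -0.35, Prrx1 0.48 to 0.57, and the bars of Prrx2 and Msx1 cross 0.

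Levels were compared between factors only as RPKM, the TMM-scaled CPM divided by the exon length in kilobases, over all isoforms together. In WT the order was Twist1 (53.2 ± 20.8 RPKM, SD, n = 2), Prrx2 (13.9 ± 4.5), Prrx1 (9.94 ± 0.31), Nkx3-2 (7.21 ± 2.39), Pax1 (6.21 ± 1.28) and Msx1 (1.42 ± 0.22). Twist1 lay above 93.9% of all tested genes in WT by this measure, and Msx1 above 28.4%. Prrx2 and Prrx1 differed by less than the spread of Prrx2, and Nkx3-2 and Pax1 overlapped. Twist2 (0.28 RPKM), Pax9 (0.19), Shox2 (0.18) and Msx2 (0.13) were lowest, and their WT ranges overlapped in part. In Trim28 KO the first 3 places were the same, Twist1 at 29.9 ± 4.2, Prrx2 at 15.3 ± 1.6 and Prrx1 at 14.1 ± 0.05 RPKM. Pax1 (4.88 ± 0.58) then stood above Nkx3-2 (2.58 ± 1.23), with no overlap. Prrx1 has an exon length of 11066 bases over several isoforms, so its level per length is understated if cells use the short ones.

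Within each pair of relatives, 1 member usually supplied most transcripts per length. Twist1 gave 99.5% to 99.8% of the Twist sum and Pax1 96.9% to 98.7% of the sum with Pax9. Prrx1 gave 37.3% and 47.5% of the Prrx sum in WT and 46.0% and 49.9% in Trim28 KO, so both genes contributed and the genotypes overlapped. Msx1 gave 95.1% and 88.2% of the Msx sum in WT and 81.9% and 81.7% in Trim28 KO. The Msx shares did not overlap between genotypes, and those of Pax1 did not either (96.9% and 97.3% against 98.4% and 98.7%). With 2 libraries against 2, an exact two-sided permutation test cannot go below p = 0.333, so these shares are given as values. The Twist, Msx and Pax shares rest on few reads of Twist2, Msx2 and Pax9. Reads in the exons that Twist2 shares with Gm29100 were not counted, so the Twist1 share is overstated.

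**Figure D3:**
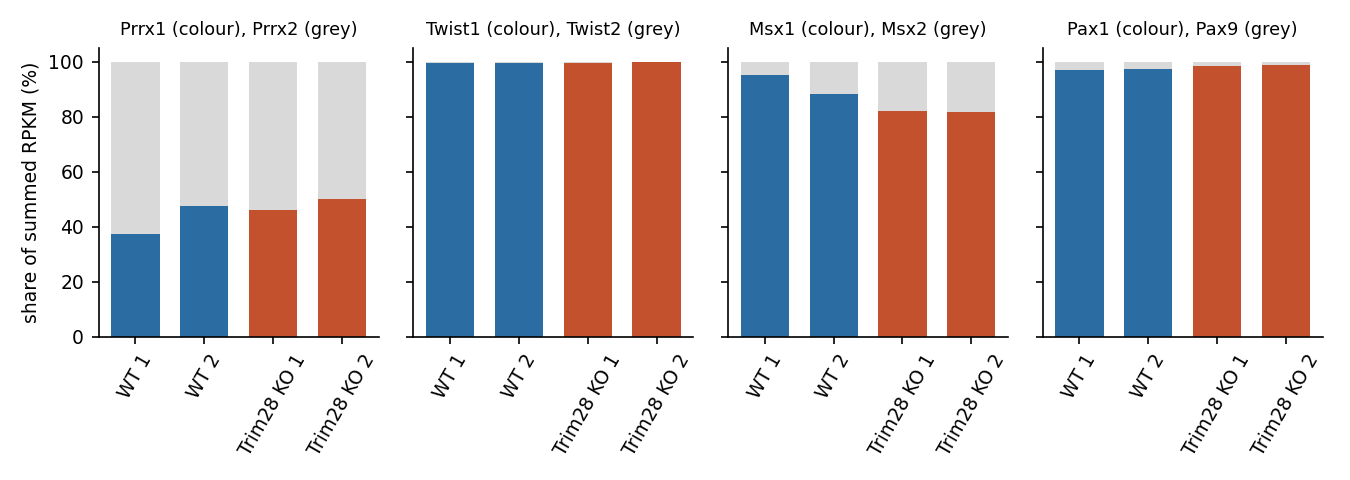
Share of summed RPKM (%) of each pair of related genes by library, with the first gene in colour (blue WT, orange Trim28 KO) and the second in grey. Twist1 and Pax1 fill nearly the whole bar, Prrx1 fills 37.3% to 49.9%, and Msx1 fills 81.7% to 95.1%.

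GC-rich genes differed between the WT libraries, and 5 of the factors are GC-rich. With the tested genes split into 4 equal classes of transcript GC content, the median log2 ratio of WT 1 to WT 2 was 0.25 in the highest class (54.5% to 84.2% GC), beside -0.12 in the lowest. Prrx2, Twist1, Msx1, Pax1 and Nkx3-2 belong to that highest class, with WT 1 over WT 2 ratios of 1.59, 1.76, 1.24, 1.34 and 1.61. Outside that class, Prrx1, at 43.6% GC, had a ratio of 1.04. Twist2 (52.6% GC) and Pax9 (46.7%) had ratios of 1.70 and 1.54, on few reads. Msx2 (48.5%) and Shox2 (49.8%) had ratios of 0.478 and 0.371, also on few reads. Whether GC content accounts for the ratios of the factors was not tested. With trends on GC content removed, Twist1 (-0.85, edgeR adjusted p = 0.00791) and Nkx3-2 (-1.40, edgeR adjusted p = 0.00581) remained called.

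Among other transcription factors that pattern the somite, limb and skeleton, more were called lower than higher. Of 45 such genes, 35 were tested, of which 9 fell, 1 rose and 25 were not called. Their median log2 fold change was -0.28. Over all genes tested, 8.77% were called lower and 8.64% higher. The list was chosen with earlier results of these data known, and its share was not tested. Barx1, a homeobox factor of joint and stomach mesenchyme, rose from 3.24 and 1.82 CPM in WT to 10.7 and 9.18 CPM in Trim28 KO (log2 fold change of 1.98 ± 0.29, edgeR adjusted p = 2.65e-05). Dlx3, a homeobox factor of bone and ectoderm, fell from 10.9 and 9.14 to 1.18 and 3.31 CPM (-2.15 ± 0.37, edgeR adjusted p = 0.00152). Without Trim28 KO 2 the Dlx3 value was -3.07. The somite factor Meox1 (-0.89 ± 0.20), the mesenchymal zinc finger factor Osr2 (-2.07 ± 0.47), Irx3 (-1.10 ± 0.24) and the limb ectoderm and somite factor En1 (-1.36 ± 0.35) also fell. Meox1 was not called without Trim28 KO 1, Osr2 without Trim28 KO 2, En1 without WT 1 or Trim28 KO 1, and Irx3 without WT 1, Trim28 KO 1 or Trim28 KO 2. The count of 9 was smaller without Trim28 KO 1, as was the count called lower over all genes tested.

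Among the sclerotome genes of that list, picked out after their values were seen, Foxc2 also fell, from 55.3 and 29.8 to 12.5 and 17.7 CPM (-1.50 ± 0.31, edgeR adjusted p = 0.00984). Foxc2 was not called without Trim28 KO 1 (edgeR adjusted p = 0.108) or with the replicate block (edgeR adjusted p = 0.11), and its value was -0.96 without WT 1. Its relative Foxc1, abundant at 277 and 132 CPM in WT and 181 and 198 CPM in Trim28 KO, overlapped between genotypes (-0.11 ± 0.31, edgeR adjusted p = 0.857). Meox2 (0.10), Tcf15 (-0.34), Uncx (-1.69) and Tbx18 (1.10) were not called. Uncx was rare, with 22 and 10 reads in WT and 4 and 6 in Trim28 KO. Its value was -2.15 without WT 2. With a block that swapped the Trim28 KO replicate numbers, Uncx was called lower (-1.67, edgeR adjusted p = 0.0323).

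Genes for dimer partners of Twist proteins and for signals that regulate these factors were called in both directions. Of 26, 24 were tested, of which 7 fell, 4 rose and 13 were not called, with a median of -0.21. Beside these stand 8.77% called lower and 8.64% called higher over all genes tested. The E protein genes Tcf3 (-0.29 ± 0.21), Tcf4 (-0.38 ± 0.20) and Tcf12 (-0.13 ± 0.19) were not called. Of the Hedgehog genes, the receptor Ptch1 (-1.63 ± 0.22), the effector Gli1 (-2.01 ± 0.24) and Gli2 (-1.23 ± 0.20) fell and Gli3 (-0.20 ± 0.19) was not called. Ihh, the ligand gene of growth plate chondrocytes, named after its values were seen, fell from 146.2 and 95.4 to 46.8 and 75.4 CPM (-0.98 ± 0.26, edgeR adjusted p = 0.0183), and was not called without Trim28 KO 1 (-0.67) or with the replicate block (edgeR adjusted p = 0.11). Shh, the ligand that induces sclerotome, had 1 read in the 4 libraries together. Of the BMP genes, the ligand gene Bmp4 fell (-1.91 ± 0.22), from 19.2 and 20.1 to 4.48 and 5.92 CPM. The antagonist gene Grem1 rose (3.92 ± 0.23). Nog, which encodes the antagonist noggin and was also named after its values were seen, rose from 42.1 and 29.3 to 79.3 and 87.3 CPM (1.22 ± 0.20). Fgf18, a growth plate signal, fell (-1.92 ± 0.25). The genes named above as called, other than Ihh, had edgeR adjusted p-values at or below 1.28e-04 and kept their calls in all 15 other settings. Fgfr1, which fell, and Id4 and Bmpr1b, which rose, were also called, and were named after their values were seen. Their edgeR adjusted p-values were 0.00746, 0.0365 and 0.0171, and their calls were lost in 1, 2 and 3 other settings. The number that rose was smaller without Trim28 KO 1, as it was over all genes tested.

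Of 17 chondrogenic and osteogenic factors, all tested, 6 fell and none rose, against 8.77% and 8.64% of all genes tested. The other 11 of the list were not called, and the list median was -0.31. At an unadjusted p under 0.05 edgeR gave 1 above 0, Mef2c, and DESeq2, limma-voom and edgeR's exact test called 0 higher. Runx2, a target that Nkx3-2 represses and Twist1 restrains, fell in the same libraries (-1.22 ± 0.20), as did Sp7 (-1.32 ± 0.21), Runx3 (-1.09 ± 0.22), the tendon factor Mkx (-1.12 ± 0.20) and the hypertrophy factors Foxa3 (-1.55 ± 0.31) and Foxa2 (-0.73 ± 0.24). Foxa2 was not called without WT 1 (-0.52), without Trim28 KO 1 (-0.42) or by DESeq2, and Foxa3 was not called with the replicate block (edgeR adjusted p = 0.135). Sox9, Sox5 and Sox6, the core chondrocyte factors, stood at -0.01 ± 0.22, 0.05 ± 0.20 and 0.07 ± 0.21 and were not called.

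**Figure D4:**
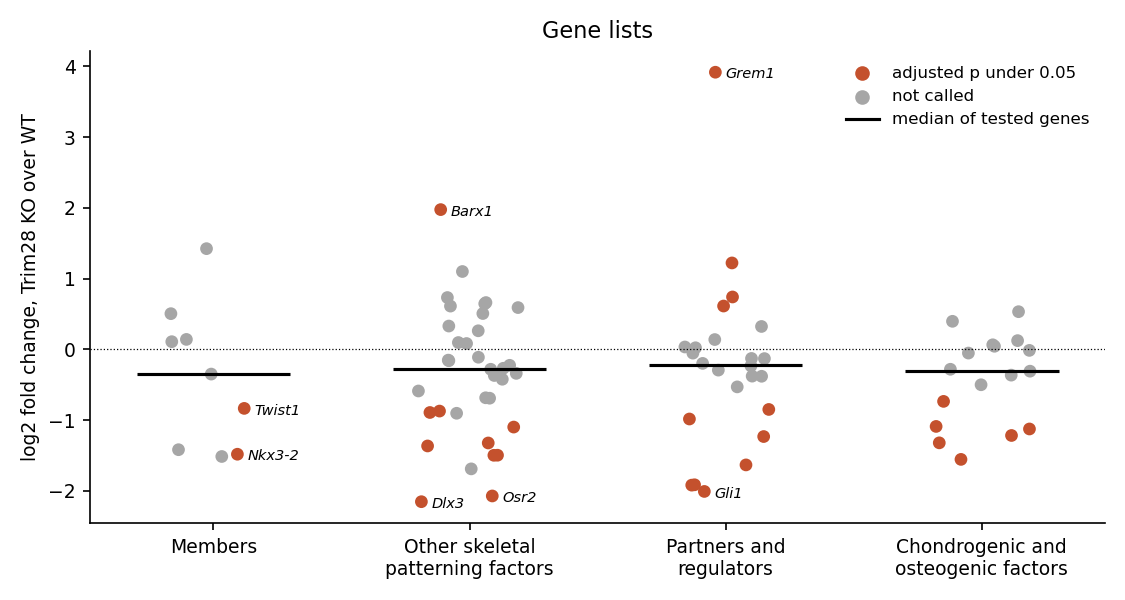
Log2 fold change (Trim28 KO over WT) of each tested gene in the 4 lists, 9 members, 35 other patterning factors, 24 partners and regulators, and 17 chondrogenic and osteogenic factors. Orange points had an adjusted p under 0.05, black lines are list medians (-0.35, -0.28, -0.21 and -0.31), and horizontal scatter has no meaning.

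Markers of other cell types moved in the same libraries, and their part in the falls of Nkx3-2 and Twist1 was not tested. Of 7 perichondrium, tendon and fibroblast markers, 4 fell. The markers summed to 13190 to 14110 CPM in WT and 5885 to 6971 CPM in Trim28 KO, mostly from Col3a1 and Postn. Thy1 (-0.545) was below 0 and not called, and Dcn (0.109) and Scx (0.125) were above 0 and not called. Of 6 osteoblast markers, 5 fell, and the 6 summed to 22060 to 38300 CPM in WT and 8452 to 12210 CPM in Trim28 KO. That sum was nearly all Col1a1, at 37380 and 21090 CPM in WT and 8258 and 11920 CPM in Trim28 KO. Bglap, with at most 46 reads in a library, was above 0 (1.19 ± 0.45) and not called. All 4 osteoclast markers fell, from 836.5 to 1009 CPM summed in WT to 224.6 to 225.3 CPM in Trim28 KO. Of 5 macrophage markers, 3 rose, from 77.7 to 79.4 CPM summed in WT to 144 to 208 CPM in Trim28 KO. Of 7 skeletal muscle markers, 1 rose and 1 fell, and their sum was highest in Trim28 KO 1 (1092 CPM) and lowest in Trim28 KO 2 (415.6 CPM). Summed chondrocyte markers overlapped between genotypes, at 79010 to 105700 CPM in WT and 77960 to 99710 CPM in Trim28 KO. That sum was mostly Col2a1, at 79630 and 55510 CPM in WT and 58700 and 74390 CPM in Trim28 KO. Taken singly, 4 of the 8 chondrocyte markers did not overlap between genotypes, beside 58.0% of all genes tested. Of 5 red blood cell markers, 4 were tested and all 4 fell, from 109.5 to 142.2 CPM summed in WT to 28.7 to 31.4 CPM in Trim28 KO. Of 3 Schwann cell markers, 2 fell, from 15.7 to 24.6 CPM summed to 6.82 to 10.4 CPM. Of 4 neutrophil markers, 3 were tested and Mpo fell, with sums of 1.86 and 17.9 CPM in WT and 0.72 and 0.45 CPM in Trim28 KO. Of 3 pericyte markers, Cspg4 rose and Rgs5 fell. Endothelial markers summed to 325.9 to 360.0 CPM in WT and 258 to 307.9 CPM in Trim28 KO. Of 3 neuronal markers, Tubb3 fell, with 163 and 81 reads in WT and 37 and 62 in Trim28 KO, while Elavl3 had at most 2 reads in a library and Snap25 had 0 in all 4. Of 3 epidermal markers, Krt10 had 135 to 193 reads per library and was not called, Krt5 had at most 12, and Krt14 had 1 read in each Trim28 KO library and 0 in WT.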

How the data were processed

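Gene counts were taken from the deposited table of 4 libraries. Per the file headers, the authors counted read pairs over exons with featureCounts 1.6.4, summed per gene name of GENCODE M23 (mm10). The recorded command sets no strand and counts neither multi-mapping reads nor reads in stretches that genes share. Outside those stretches reads were assigned by position alone, so antisense reads within a gene's exons count for that gene. Gene lengths are those of the same deposited table. The aligner is not given in the sources used here. The table names 55228 genes.

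Genes were kept by edgeR's filterByExpr, counts were TMM-scaled, and the genotypes were compared with edgeR's quasi-likelihood test, robust dispersions and no covariate (edgeR 4.0.16, limma 3.58.1, DESeq2 1.42.0, R 4.3.3), with Benjamini-Hochberg adjustment over all genes tested. CPM and RPKM were computed here. Standard errors are the log2 fold change over the square root of F, and intervals use the fit's degrees of freedom. Positions and overlaps came from GENCODE M21 on GRCm38. On simulated counts, false calls exceeded the nominal share both with dispersions set by expression level and with gene-specific dispersions. The members and lists were chosen with earlier results of these data known. All members are named, and up to 6 called genes per list with the smallest p-values. From the chondrogenic and osteogenic list, 1 gene is not reported here and was left out of its counts. Other genes are named as chosen later or as list members without a call. No gene was ranked by likeness of pattern, since 4 libraries allow no such measure. Alternatives were other scalings, filters and tests, a replicate block, and leaving out each library. A crossed block and offsets for GC trends were chosen after seeing the data. Totals of 18616896 to 20082123 counts put 3 reads at 0.149 to 0.161 CPM.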

Additional observations from a re-analysis of the deposited data

How the results depend on the processing

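Over 15 other settings, Nkx3-2 and Twist1 stayed below 0 and Prrx1 above 0, and Nkx3-2 was called in 13 and Twist1 in 11. The members called lower numbered 2, and 0 with the replicate block (Nkx3-2 at adjusted p = 0.067, Twist1 at 0.0676), and ranged from 0 to 2 when 1 library was left out. Prrx1 was called higher with library size alone, DESeq2 or GC-trend offsets (1 member called higher under each). When 1 library was left out, the log2 fold change of Msx1 ran from -0.13 to 0.33 and that of Prrx2 from -0.13 to 0.54. Both were uncalled, and fell below 0 without WT 2 (-0.01 and -0.13), and Msx1 also without Trim28 KO 1. Of the other patterning factors, 5 were called lower with the stricter filter of 5 CPM in 2 libraries, which left 4 of the 9 untested, and 2 to 11 when 1 library was left out, where 1 to 2 were called higher. Of partners and regulators, 2 to 3 were called higher when 1 library was left out. Among chondrogenic and osteogenic factors, Mef2c was called higher (1 gene) with the replicate block, GC-trend offsets or without WT 2. Twist2, Msx1, Msx2 and Pax9 were not tested under the stricter filter, and Shox2 had values only with no filter or without WT 1, Trim28 KO 1 or Trim28 KO 2. Over all genes, 1274 were called without Trim28 KO 1 and 1713 without Trim28 KO 2, against 2898. The replicate numbers in the labels name no shared embryo or litter. Deviations of same-numbered libraries correlated at -0.107, so a crossed block was added, which called 1 member higher, Msx2, and 3 lower, Nkx3-2, Twist1 and Twist2. Fitted differences of 2.85-fold in Twist2, 2.67-fold in Pax9 and 2.68-fold in Msx2 were not called without a block, at their depth of fewer than 30 reads per library. The causes of these changes of call were not tested.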
